A study of Mus musculus with 9 samples.

Results

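RNA of TtT/GF cells was compared between 120 min and 30 min of 10 µM NECA, on 3 arrays per time, which are 6 of the 9 arrays of the study. The arrays were taken by their labelled agent and time, and no measured value was used to choose them. TtT/GF is 1 mouse cell line from the pituitary that resembles folliculostellate cells, which make no hormone and are joined to one another by gap junctions. NECA (5'-N-ethylcarboxamidoadenosine) mimics adenosine at its cell surface receptors. All 9 cultures grew in heat-inactivated fetal bovine serum at 2%, and RNA was extracted with TriZol and hybridised as biotin-labelled cRNA to Affymetrix mouse arrays, per the labels. The other 3 arrays came from cultures labelled as given no agent, with no vehicle and no time named, so the untreated level is shown as a reference and is not matched to either time. The design text calls the samples replicate cultures of the line, so the p-values measure the spread between cultures of 1 line, and the number of arrays limits the precision.

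Adenosine receptors couple through G proteins to adenylyl cyclase. A rise in cyclic AMP activates protein kinase A, which phosphorylates the transcription factor CREB, and CREB and MAP kinase signalling switch on immediate early genes without new protein synthesis. Many immediate early transcripts decay within a short time through AU-rich elements, and several of their products, among them phosphatases, repressors of CREB and proteins that bind AU-rich mRNA, limit the response. Genes of later waves need time for transcription and for newly made factors. In the pituitary, folliculostellate cells are known for secreting interleukin 6 and growth factors to their endocrine neighbours.

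The 6 arrays were alike in scale. The deposited signals had a 2% trimmed mean of 100.056 to 100.065 on each array, so this likeness was largely set in advance. The median signal at 30 min was 34.75 ± 1.03 and that at 120 min was 34.6 ± 1.63 (SD, 3 arrays each, n = 3; two-sided exact permutation p = 1, where the smallest possible p is 0.1). As a measure of RNA integrity, the signal of the 3' Gapdh control over the 5' control was 0.92 ± 0.038 and 0.947 ± 0.029 (SD, n = 3; two-sided exact permutation p = 0.5). The same ratio for the Actb controls was 1.136 ± 0.032 at 30 min and 1.199 ± 0.066 at 120 min (SD, n = 3; two-sided exact permutation p = 0.3). Within a time the log2 signals of arrays correlated at 0.947 to 0.969 for 30 min and 0.967 to 0.972 for 120 min across probe sets, which are not independent replicates. Among the 30 min arrays, replicates 1 and 2 correlated at up to 0.972 and 0.979 with an untreated array. Both values exceeded the highest one within the 30 min group, 0.969. Replicate 3 had the lowest correlations with its own group, 0.947 and 0.962. All arrays were kept.

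The labelled cell type was set against marker lists. Gja1, the gap junction gene that couples folliculostellate cells, lay at signals of 1126 to 1839 over the 6 treated arrays, and S100b, the classical marker of these cells, lay at 21.2 to 64.6. Gfap was at 8.62 to 33.0 and Sox2 and the listed Vim probe set did not reach the level needed for testing. Of 12 tested folliculostellate markers 0 passed in either direction, as did 0 of 8 markers of pituitary hormone cells, 0 of 2 of endothelial cells, 0 of 7 of macrophages and leukocytes and 0 of 10 of fibroblasts and mural cells. At an unadjusted p under 0.05 limma gave 1 higher and 2 lower folliculostellate markers, 1 lower fibroblast marker and 0 of the other 3 lists. Krt18, a keratin gene of the folliculostellate list (-0.54, adjusted p = 0.057), was lower without NECA 30 min replicate 2 (adjusted p = 0.0403). The summed signal of each list overlapped between the times. It was 4038 to 4670 at 30 min and 4640 to 4991 at 120 min for folliculostellate markers, 674 to 766 and 625 to 874 for hormone cells, 613 to 772 and 587 to 677 for endothelial cells, 998 to 1170 and 998 to 1243 for macrophages and leukocytes, and 7390 to 7553 and 6566 to 7455 for fibroblasts and mural cells. Ptprc, Itgam and Adgre1 of the macrophage and leukocyte list reached at most 7.63, 3.08 and 8.51 in the treated arrays. Other members of that list were bright there, Cd68 at 353 to 546 and Cd14 at 428 to 630. Col1a1 of the fibroblast list lay at 3038 to 3811, above Gja1. The part of other cell types in the results was not tested beyond these values.

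Between 30 and 120 min 13 of 21 tested immediate early genes, 6 of 15 YAP target and pathway genes, among them Ccn1, Ccn2 and Ankrd1, and 7 of 23 genes of growth arrest fell. The cytokine gene Il6, the receptor gene Csf2rb, the JAK inhibitor gene Socs3, the vitamin D receptor gene Vdr, the CREB-family gene Crem and 5 of 25 antioxidant genes rose. Of 7851 probe sets tested with limma on log2(signal + 7.93), 106 were higher at 120 min (1.35%) and 127 were lower (1.62%) at an adjusted p under 0.05. Counted as genes, each by its brightest tested probe set, 87 of 5897 were higher (1.48%) and 102 were lower (1.73%). The counts of each gene list are to be read beside these shares of all genes, and no list was tested against them. Before adjustment, 473 had p under 0.05 and a positive change and 547 a negative one, the called ones included. The median change of all tested probe sets was -0.01 on the log2 scale, and 89.8% lay within 0.5 of 0. Counts of positive or negative changes in a list are to be read beside this median. The shares of all genes with each sign are not given here.

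Changes of at least 2-fold were called for 55 probe sets that rose and 69 that fell, and changes of at least 4-fold for 7 and 16. In each of the 233 called probe sets the 3 arrays of one time did not overlap the 3 of the other. The calls rest on the same arrays, so this is no separate support for them. The share of all tested probe sets without overlap is not given here. Calls were made at all signal levels, with 18 higher and 19 lower in the dimmest 25% of probe sets and 30 higher and 43 lower in the brightest 25%. The smallest change called was 0.44 on the log2 scale. Folds are on the log2(signal + 7.93) scale and understate the change of genes that are dim at one time, such as Ccn2 at 120 min and Csf2rb at 30 min, whose arrays there lay below the signal of 20.5 used to filter probe sets. The count of higher probe sets depended on single arrays. It was 177 without NECA 30 min replicate 2, 64 without NECA 120 min replicate 2 and 65 without NECA 120 min replicate 3, against 129, 87 and 94 lower.

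**Figure D1:**
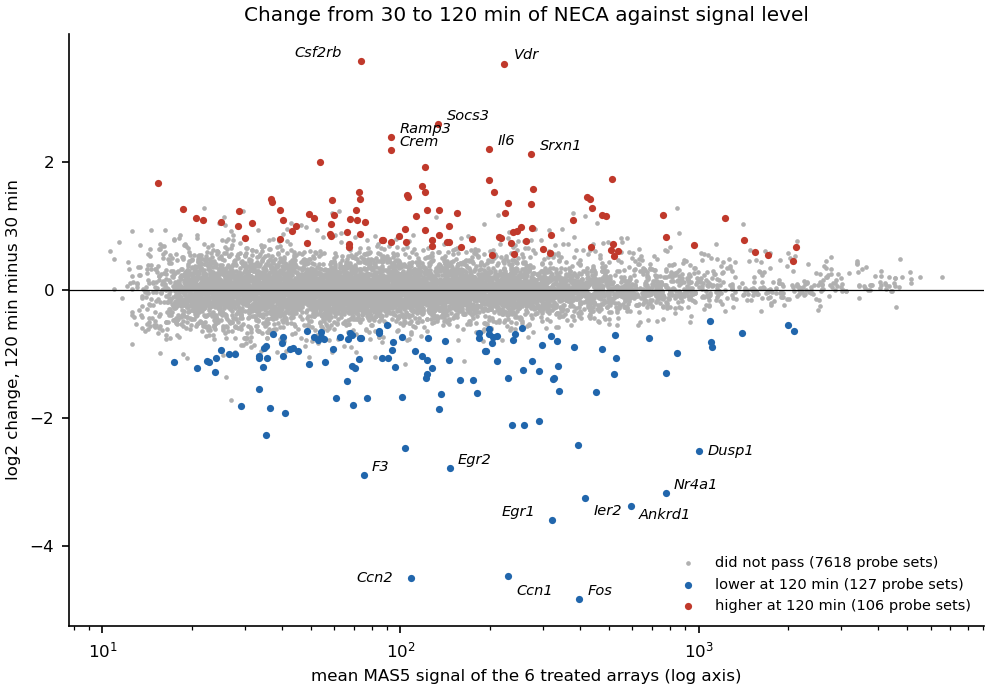
Log2 change from 30 to 120 min of NECA (vertical axis) against the mean MAS5 signal of the 6 treated arrays (horizontal log axis) for 7851 tested probe sets, with 106 called higher in red, 127 called lower in blue and the rest in grey. The most negative points, Fos, Ccn2 and Ccn1, lie below -4, and the highest, Csf2rb and Vdr, lie above 3.5.

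The immediate early genes showed the broadest fall. Of 21 tested, 13 were lower at 120 min, 0 were higher (1 at an unadjusted p under 0.05) and 8 did not pass, and the list's median change was -0.92 on the log2 scale against -0.01 over all genes. The members that fell were Fos, Fosb, Junb, Atf3 and Mafk of the basic leucine zipper class, Egr1 and Egr2 of the zinc finger class, the orphan nuclear receptor genes Nr4a1 and Nr4a2, and Myc, Ier2, Ier3 and Btg2. Jun (0.55; higher without NECA 120 min replicate 2, adjusted p = 0.0323), Fosl1 (0.24), Maff (0.13), Fosl2 (-0.02) and Jund (-0.04) of the AP-1 family did not pass. Of the 13, 12 passed under each of the 19 alternative settings tried (18 for genes too dim for the stricter filter), and Ier3 did not under 8 of them, among them the fits without NECA 30 min replicates 1 or 3 or any 1 of the 120 min arrays (highest adjusted p 0.1).

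Fos (probe set 160901_at), which encodes an AP-1 subunit, had signals of 715, 757 and 849 at 30 min and 18.8, 20.9 and 18.6 at 120 min. The untreated arrays read 354, 243 and 263, so the 120 min arrays lay below both other groups and the 30 min arrays above both. The change from 30 to 120 min was -4.83 ± 0.15 (SE) on the log2 scale, a 28.5-fold decrease (limma adjusted p = 4.23e-09). It was the most negative change of any gene tested with the offset of 7.93, while with an offset of 1 Ccn2 changed more (-6.27 against -5.24). Against untreated cells the log2 change of Fos was 1.42 at 30 min and -3.41 at 120 min. The comparisons with untreated cells use the same treated arrays as the comparison of the times, so they are given side by side and are not independent of it.

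Egr1 (98579_at), a zinc finger factor of the same early class, read 564, 665 and 571 at 30 min and 48.9, 28.0 and 53.0 at 120 min. Untreated arrays read 437, 447 and 493. The 30 min arrays exceeded the untreated ones without passing the test (0.38, adjusted p = 0.587), and the 120 min arrays were 12.1-fold below the 30 min ones (-3.60 ± 0.19, adjusted p = 2.28e-07). Egr2 (102661_at) read 262, 238 and 284 at 30 min and 31.3, 32.3 and 29.1 at 120 min, beside 236, 232 and 253 untreated. For Egr2 the 30 min and untreated arrays overlapped and only the 120 min arrays stood apart, by -2.79 ± 0.12 (adjusted p = 7.73e-08).

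Ier2 (99109_at), a nuclear immediate early gene, fell from 739, 683 and 856 to 67.9, 71.0 and 77.3, a change of -3.26 ± 0.13 (adjusted p = 2.51e-08), beside 441, 434 and 481 untreated. Junb (102362_i_at), an AP-1 subunit gene, fell from 437, 434 and 549 to 80.8, 124 and 123 (-2.05 ± 0.17, adjusted p = 2.1e-05), and the other probe set fell by 2.12. Untreated Junb read 210, 203 and 231, between the times. Myc, the cell growth factor gene, fell from 265, 280 and 283 to 87.4, 87.6 and 81.0 (-1.61 ± 0.13, adjusted p = 2.05e-05). In these genes, as in Fos and Egr1, the untreated level lay above the 120 min level.

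The orphan receptor genes of the Nr4a family followed another course. Nr4a1 (102371_at) read 1333, 1377 and 1495 at 30 min and 146, 186 and 117 at 120 min, beside 87.2, 82.6 and 98.6 untreated. It fell 9.09-fold from 30 to 120 min (-3.18 ± 0.16, adjusted p = 2.02e-07), and its 120 min arrays still lay above every untreated array (0.67, adjusted p = 0.0423). Nr4a2 fell from 81.2, 95.0 and 65.6 to 40.7, 35.3 and 39.3 (-0.92 ± 0.17, adjusted p = 0.00878), above 12.8, 14.7 and 15.3 untreated, and its second probe set fell by 1.17. Both members thus lay at 3 separate levels, highest at 30 min and lowest untreated.

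A few other genes fell from 30 to 120 min and stayed above untreated cells. Ier3, an early gene with roles in cell survival, read 2449, 2214 and 2437 at 30 min, 1535, 1683 and 1613 at 120 min and 789, 983 and 971 untreated. Its change between the times was -0.55 ± 0.12 (adjusted p = 0.0247). Ddit4, which restrains mTOR signalling, read 826, 773 and 977 at 30 min, 469, 485 and 567 at 120 min and 267, 232 and 305 untreated (-0.75 ± 0.14, adjusted p = 0.0133). Rab20, a small GTPase gene, read 109, 179 and 93.5 at 30 min, 67.2, 48.8 and 47.5 at 120 min and 28.4, 29.7 and 30.7 untreated (-1.07 ± 0.21, adjusted p = 0.0163). The Ier3 call was lost without NECA 30 min replicates 1 or 3 or any 1 of the 120 min arrays, Ddit4 without NECA 120 min replicates 1 or 2 (highest adjusted p 0.0713) and Rab20 without NECA 120 min replicates 2 or 3 (highest adjusted p 0.077).

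**Figure D2:**
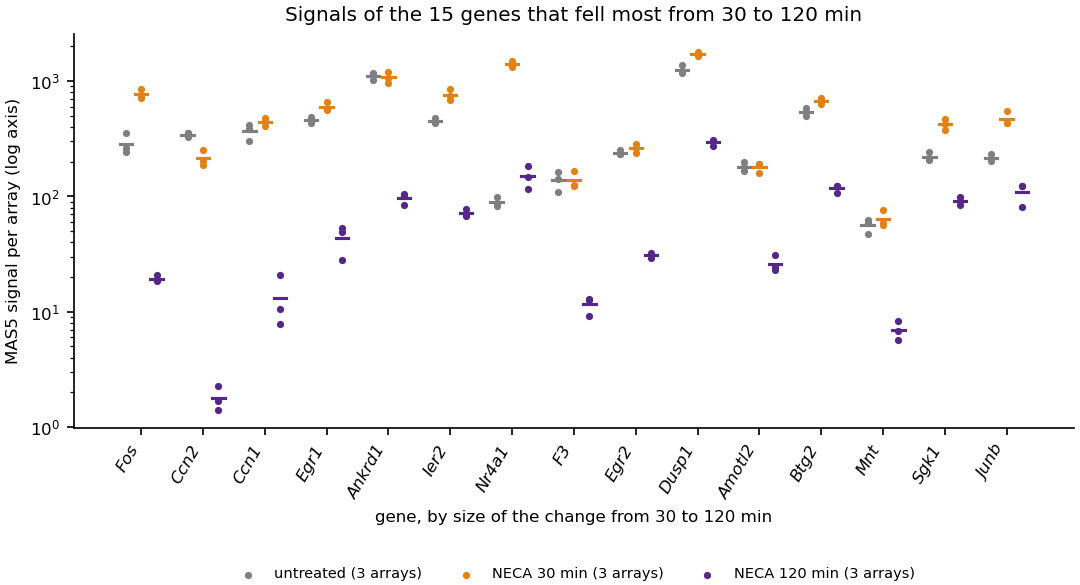
MAS5 signal per array (vertical log axis) of the 15 genes with the largest falls from 30 to 120 min, for untreated cells (grey), NECA 30 min (orange) and NECA 120 min (purple), with 3 arrays per group as points and the mean as a bar. For each gene the 120 min arrays lie below the 30 min arrays, and Nr4a1 is the one gene of the 15 whose 120 min arrays lie above the untreated arrays.

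Among genes known to act as brakes on these signals, Dusp1, Zfp36 and Btg2 fell, while Crem, Rgs2 and Socs3 rose. Dusp1 (104598_at), which encodes a phosphatase that inactivates MAP kinases, read 1713, 1802 and 1640 at 30 min and 306, 276 and 300 at 120 min, beside 1395, 1222 and 1169 untreated. The change was -2.51 ± 0.11 (adjusted p = 9.64e-08). Dusp1 was the 1 member called among 8 tested MAP kinase phosphatases and feedback inhibitors. Dusp6 (-0.48, adjusted p = 0.0881), Dusp2 (-0.77, adjusted p = 0.201) and Dusp16 (-0.44, adjusted p = 0.337) did not pass.

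Of 20 tested genes of mRNA decay and deadenylation, 4 fell and 0 rose (1 at an unadjusted p under 0.05), with a median of -0.08. The shares, 20% lower and 0% higher, compare with 1.73% and 1.48% of all genes. Zfp36, which encodes tristetraprolin, a protein that binds AU-rich elements and recruits deadenylases, fell from 236, 193 and 273 to 87.6, 77.8 and 81.5 (-1.41 ± 0.15, adjusted p = 0.000203). Its relative Zfp36l2 fell from 593, 899 and 556 to 198, 292 and 169 (-1.60 ± 0.24, adjusted p = 0.00214), while a second, dimmer Zfp36l2 probe set changed by -0.28 and did not pass. Zfp36l1 fell by 0.87 on the log2 scale (adjusted p = 0.0105), a call lost without NECA 120 min replicate 1 or 3 (highest adjusted p 0.0541). Btg2 (101583_at), an antiproliferative gene whose product binds deadenylases, fell from 710, 673 and 630 to 108, 124 and 123 (-2.43 ± 0.12, adjusted p = 2.02e-07).

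The promoters of 4 of the 15 genes that fell most are shown because each holds the letters of a site named for a factor of the early response. They are the 4 with the smallest limma p among the named genes with such a site, and genes on 1 chromosome were left out of this choice. Each promoter shown is the 250 bases before a RefSeq transcription start on the gene's strand (GRCm38.p6), with the site in capitals. Egr2 lies at chr10:67537316-67537565 (plus strand), with a CArG box, the site of serum response factor, beginning 72 bases before this start, 1 of 5 starts of the gene in the table. Dusp1 lies at chr17:26508473-26508722 (minus strand) and Btg2 at chr1:134079156-134079405 (minus strand), each with a full cyclic AMP response element, at 143 and 166 bases before the start. F3 lies at chr3:121723287-121723536 (plus strand), with an AP-1 site at 135 bases before the start.
Egr2: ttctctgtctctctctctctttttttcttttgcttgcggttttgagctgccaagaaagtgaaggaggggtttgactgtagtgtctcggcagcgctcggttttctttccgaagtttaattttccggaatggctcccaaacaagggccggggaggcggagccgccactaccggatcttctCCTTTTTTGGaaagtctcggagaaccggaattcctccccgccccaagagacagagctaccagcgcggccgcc
Dusp1: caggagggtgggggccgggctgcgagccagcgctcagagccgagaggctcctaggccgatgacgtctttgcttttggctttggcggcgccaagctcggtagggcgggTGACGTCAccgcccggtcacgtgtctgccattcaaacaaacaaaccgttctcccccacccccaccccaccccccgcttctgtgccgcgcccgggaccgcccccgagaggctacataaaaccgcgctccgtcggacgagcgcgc
Btg2: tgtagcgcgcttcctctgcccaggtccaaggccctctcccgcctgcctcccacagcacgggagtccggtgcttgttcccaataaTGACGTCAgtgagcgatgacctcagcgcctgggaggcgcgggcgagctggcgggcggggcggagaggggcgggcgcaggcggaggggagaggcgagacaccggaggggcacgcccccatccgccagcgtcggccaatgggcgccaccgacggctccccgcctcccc
F3: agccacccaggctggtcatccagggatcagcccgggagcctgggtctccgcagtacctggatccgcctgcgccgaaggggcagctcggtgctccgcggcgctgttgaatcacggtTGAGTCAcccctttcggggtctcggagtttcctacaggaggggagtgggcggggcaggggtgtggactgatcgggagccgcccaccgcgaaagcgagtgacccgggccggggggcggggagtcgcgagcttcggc

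The motifs were searched as letters on both strands of windows from 250 bases before to 50 after the start, and a match is a description, not a shown site. Of the 15 falls 12 had a promoter in the table, as had 12 of the 15 rises. The full cyclic AMP response element TGACGTCA was found in 2 of the 12 falls and 0 of the 12 rises, beside 3.45% of all tested genes and 2.03% of the 27025 genes in the table. Its core TGACG, which the full element contains, was found in 8 falls and 5 rises, beside 36.5% and 23.0%. AP-1 sites (TGACTCA or TGAGTCA) were found in 1 fall and 2 rises, beside 5.06% and 5.95%. The CArG box was found in 1 fall and 0 rises, beside 1.79% and 1.81%. GGAATG, the core bound by TEAD factors, was found in 6 falls (Amotl2, Ankrd1, Ccn1, Egr2, Nr4a1 and Sgk1) and 1 rise, beside 14.5% and 16.6%. The 15 falls and 15 rises were picked by size, so shares were also taken over the 86 of the genes called lower that had a promoter. They were 17.4% for GGAATG, 6.98% for the full cyclic AMP response element and 41.9% for its core. For AP-1 sites and the CArG box they were 3.49% each. Over the 67 of the genes called higher that had a promoter they were, in the same order, 10.4%, 2.99%, 40.3%, 10.4% and 2.99%. Genes with several starts count once if any window holds the letters, so genes with more windows have more chances.

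The YAP target genes Ccn2 and Ccn1 fell 22.7-fold and 22.3-fold. YAP is the transcriptional co-activator restrained by the Hippo pathway, and works through TEAD factors. Of 15 tested target and pathway genes, 6 were lower, 0 were higher (2 at an unadjusted p under 0.05) and 9 did not pass, with a median of -0.12. Ccn2 (93294_at), which encodes a matricellular protein also called connective tissue growth factor, read 202, 254 and 188 at 30 min and 2.26, 1.69 and 1.40 at 120 min. Untreated arrays read 352, 352 and 329. The 3 groups lay apart, in falling order from untreated to 120 min. The 30 min change against untreated did not pass (-0.67, adjusted p = 0.104), and the change between the treated times was -4.51 ± 0.14 (adjusted p = 4.23e-09).

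Ccn1 (92777_at), a related matricellular gene, read 407, 478 and 452 at 30 min and 20.9, 10.5 and 7.87 at 120 min, beside 418, 300 and 388 untreated (-4.48 ± 0.21, adjusted p = 1.12e-07). Ankrd1 (102048_at), which encodes an ankyrin repeat protein, read 1075, 973 and 1210 at 30 min and 101, 105 and 84.5 at 120 min, beside 1151, 1030 and 1169 untreated (-3.38 ± 0.13, adjusted p = 2.51e-08). For both the 30 min and untreated arrays overlapped, and the fall was seen only at 120 min. Amotl2 (160131_at), which encodes a YAP-binding angiomotin, fell from 190, 193 and 160 to 31.3, 23.0 and 24.2 (-2.47 ± 0.14, adjusted p = 6.94e-07). F3 (97689_at), the tissue factor gene that starts blood coagulation, fell from 123, 126 and 167 to 12.9, 9.12 and 12.7 (-2.90 ± 0.18, adjusted p = 1.3e-06).

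Lats2, a Hippo kinase gene, fell by 0.72 on the log2 scale (adjusted p = 0.0353), a call lost under 11 of 19 alternatives, among them the fits without untreated replicate 3, NECA 30 min replicates 2 or 3 or any 1 of the 120 min arrays (highest adjusted p 0.156). The factor genes Yap1 (0.61), Wwtr1 (-0.00), Tead2 (0.09) and Tead4 (-0.04) did not pass. Of 26 tested SRF target and actin genes only Rhob, a small GTPase gene, was called. Of the 26, 20 had a negative change, with a median of -0.10 against -0.01 over all genes. This list holds mostly actin and cytoskeleton genes. It leaves out the listed immediate early genes, among them Egr2 with its CArG box, so its count does not cover them. Rhob fell from 321, 441 and 339 to 121, 160 and 167 (-1.25 ± 0.17, adjusted p = 0.00108). The falls of Ccn1, Ccn2, Ankrd1, Amotl2 and F3 passed under each of the 19 alternatives.

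The cyclic AMP and CREB target genes moved in both directions. Of 17 tested, 5 rose, 9 fell and 3 did not pass (Cga, Ptgs2 and Pde4b, at -0.04, 0.02 and 0.24). The 9 falls were Fos, Dusp1, Nr4a1, Junb, Per1, Atf3, Bdnf, Cited2 and Nr4a2, several of them immediate early genes, and the 5 rises were Crem, Nfil3, Il6, Rgs2 and Gem. These shares, 29.4% higher and 52.9% lower, compare with 1.48% and 1.73% of all genes. The list was drawn up with earlier results of these data known.

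Crem (100533_s_at) encodes cyclic AMP response element modulators, among them the short repressor ICER that is made from an inducible internal promoter. It read 26.4, 34.2 and 25.5 at 30 min, within the range of 23.8 to 28.6 untreated or just above it, and 150, 172 and 150 at 120 min. The rise was 2.18 ± 0.15 (adjusted p = 3.23e-06), and a second probe set rose by 2.00. The probe sets do not tell the Crem transcripts apart here. Crem was the 1 member called higher among 27 tested genes of the cyclic AMP machinery.

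Nfil3, a basic leucine zipper repressor gene, read 103, 99.5 and 67.4 at 30 min and 329, 293 and 300 at 120 min (1.71 ± 0.16, adjusted p = 4.38e-05). Its untreated arrays at 49.7 to 53.5 lay below both times. Rgs2, which encodes a GTPase activator that turns off G protein signals, rose from 26.7, 29.1 and 29.9 to 80.0, 105 and 83.3 (1.41 ± 0.20, adjusted p = 0.00141), from 2.81 to 8.01 untreated. Rgs2 thus rose at each step, in contrast to Dusp1. Among 9 tested regulators of G protein signalling, Rgs2 was called higher and Rgs3 lower (-0.80 ± 0.18, adjusted p = 0.0376). The Rgs3 call was lost under 12 of 19 alternatives, among them the fits without untreated replicates 1 or 3, NECA 30 min replicates 1 or 3 or any 1 of the 120 min arrays (highest adjusted p 0.147).

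In the cyclic AMP machinery Pde1b, a calcium-activated phosphodiesterase gene, was the 1 member lower (-0.61 ± 0.15, adjusted p = 0.0499), and it did not pass under 17 of 19 alternatives, with each array but NECA 30 min replicate 2 left out among them (highest adjusted p 0.204). Adcy6, an adenylyl cyclase gene, read 152, 155 and 203 at 30 min and 273, 241 and 212 at 120 min and did not pass (0.49, adjusted p = 0.149). It passed without NECA 30 min replicate 3 (adjusted p = 0.044). Of 7 tested genes of adenosine handling 0 were called by limma and 1 was lower at an unadjusted p under 0.05, with Ampd3, an AMP deaminase gene, at -0.48 (adjusted p = 0.286), the ecto-nucleotidase gene Nt5e at 0.25 (adjusted p = 0.692) and Adk, which phosphorylates adenosine, at 0.39 (adjusted p = 0.709). The adenosine receptor genes were not analysed here.

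Among secreted factors Il6 was higher at each later time. Il6 (102218_at), the cytokine for which folliculostellate cells are known, read 2.79, 1.08 and 2.76 untreated, 49.9, 96.6 and 55.9 at 30 min and 276, 407 and 304 at 120 min. The 3 groups did not overlap, and the rise from 30 to 120 min was 2.19 ± 0.22 (adjusted p = 0.000119). The chemokine genes Cxcl1 and Cxcl5 moved the other way, Cxcl1 from 2552, 2389 and 2737 to 1482, 1775 and 1654 (-0.64 ± 0.11, adjusted p = 0.00501) and Cxcl5 from 1060, 1036 and 1292 to 444, 574 and 688 (-0.995 ± 0.170, adjusted p = 0.00597). Both encode neutrophil attractants. Of 11 tested cytokines and chemokines, 1 rose, 2 fell and 8 did not pass, Ccl2 among the last (-0.31, adjusted p = 0.143).

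Of 20 tested cytokine receptor chains, 3 rose and 0 fell (3 were lower at an unadjusted p under 0.05). Osmr, the oncostatin M receptor gene (0.43), was also higher without NECA 30 min replicate 2 (adjusted p = 0.0482). Lifr, the LIF receptor gene (-0.97, adjusted p = 0.0515), was lower under 5 of its alternatives, among them the fit without NECA 30 min replicate 3 (adjusted p = 0.0208). Csf2rb (94747_at), the beta chain shared by the receptors of IL-3, IL-5 and GM-CSF, read 3.26, 4.95 and 5.30 at 30 min and 116, 128 and 185 at 120 min. Untreated arrays read 3.67, 6.26 and 5.22, so the untreated and 30 min arrays were all dim and overlapped. The rise was 3.58 ± 0.22 (adjusted p = 1.35e-06). With the offset of 7.93 it was the largest of any gene tested, close to that of Vdr (3.53), and with an offset of 32 Vdr rose more (2.87 against 2.24). Csf2rb2, a mouse-specific close copy that serves IL-3, rose from 18.1, 16.2 and 14.8 to 59.1, 60.4 and 51.5 (1.42 ± 0.25, adjusted p = 0.00672), and the probes may not tell the copies apart. Il1r1, the IL-1 receptor gene, read 32.4, 36.1 and 14.9 at 30 min and 68.5, 62.9 and 52.3 at 120 min (1.00 ± 0.24, adjusted p = 0.0461), a call lost under 13 of 18 alternatives, with any 1 array but NECA 30 min replicate 2 left out among them (highest adjusted p 0.174).

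Genes downstream of IL-6-type receptors rose in part. Of 21 tested JAK-STAT genes, 4 rose, 2 fell and 15 did not pass, with a median of 0.06. Socs3 (92232_at), the inhibitor of JAK kinases induced by STAT3, read 16.0, 7.46 and 10.1 untreated, 27.1, 27.2 and 44.7 at 30 min and 209, 258 and 238 at 120 min (2.59 ± 0.21, adjusted p = 1.56e-05), and a second probe set rose by 1.62. Cebpd, a transcription factor gene of the acute phase response, rose from 748, 642 and 935 to 1569, 1733 and 1726 (1.12 ± 0.14, adjusted p = 0.000739), above 346 to 403 untreated. In both genes the 3 groups lay apart in rising order.

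Bcl3 (102239_at), which encodes a nuclear IkB protein and is a member of both the JAK-STAT and the NF-kB lists, rose from 168, 128 and 116 to 484, 371 and 406 (1.57 ± 0.24, adjusted p = 0.00263), above 22.7 to 55.1 untreated. Stat3 itself read 254, 235 and 273 at 30 min and 370, 367 and 411 at 120 min (0.58 ± 0.12, adjusted p = 0.0222), and the other probe set rose by 0.73. The Stat3 call was lost under 6 of 19 alternatives, among them the fits without NECA 30 min replicate 1 or any 1 of the 120 min arrays (highest adjusted p 0.102). The kinase genes Pim1 and Pim3 fell, Pim1 from 481, 422 and 517 to 210, 182 and 211 (-1.20 ± 0.13, adjusted p = 0.000173) and Pim3 by 0.74 on the log2 scale (adjusted p = 0.0443). Pim3 did not pass under 13 of 19 alternatives, among them the fits without untreated replicates 1 or 2, NECA 30 min replicates 1 or 3 or any 1 of the 120 min arrays (highest adjusted p 0.175), and the second Pim1 probe set, at -0.87, did not pass. Of 19 tested NF-kB genes only Bcl3 rose and only Cxcl1 fell.

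**Figure D3:**
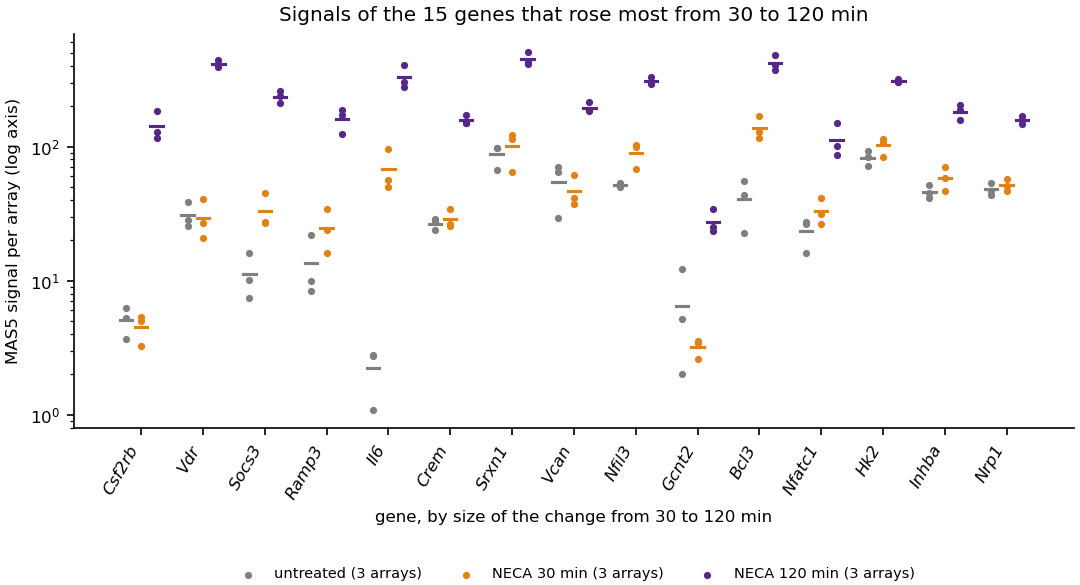
MAS5 signal per array (vertical log axis) of the 15 genes with the largest rises from 30 to 120 min, for untreated cells (grey), NECA 30 min (orange) and NECA 120 min (purple), with 3 arrays per group as points and the mean as a bar. For each gene the 120 min arrays lie above the 30 min and the untreated arrays, and Il6, Bcl3, Socs3 and Nfil3 show 3 levels in rising order.

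Vdr (99964_at), the gene of the nuclear receptor for active vitamin D, read 27.1, 40.3 and 20.7 at 30 min and 390, 409 and 445 at 120 min. The untreated arrays, at 38.8, 28.3 and 25.7, overlapped the 30 min arrays. Vdr rose 11.6-fold (3.53 ± 0.19, adjusted p = 4.4e-07), and the other probe set rose by 1.06. Of 22 tested nuclear receptors Vdr was the 1 member that rose, and 4 fell, Nr4a1, Nr4a2, Pparg and Nr1h4. Pparg, the receptor gene of fat cell differentiation, fell from 33.5, 34.6 and 37.9 to 14.9, 11.0 and 12.4 (-1.07 ± 0.19, adjusted p = 0.00924), and the call for Nr1h4, the bile acid receptor gene (-0.84, adjusted p = 0.0266), was lost under 9 of 18 alternatives, among them the fits without any 1 of the 30 min arrays or NECA 120 min replicates 1 or 2 (highest adjusted p 0.112).

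Ramp3 (92368_at), which encodes a membrane partner that makes the calcitonin receptor-like receptor respond to adrenomedullin, rose from 34.4, 24.0 and 16.0 to 188, 172 and 124 (2.39 ± 0.27, adjusted p = 0.000265). Adm, the gene of adrenomedullin itself, fell from 95.9, 80.9 and 125 to 28.1, 32.6 and 35.2 (-1.43 ± 0.16, adjusted p = 0.000305). Ackr3, a scavenger receptor gene for CXCL12 that also binds adrenomedullin, read 1.32 to 5.27 untreated, 17.8, 14.6 and 18.8 at 30 min and 59.4, 50.0 and 61.5 at 120 min (1.38 ± 0.22, adjusted p = 0.00407). Adm and Ramp3 thus moved in opposite directions between the times, while the related genes Ramp1 (0.03) and Ramp2 (0.09) did not pass. Of 6 tested genes of this list, 2 were higher and 1 was lower. The Ackr3 call was lost with an offset of 1 in place of 7.93 (adjusted p = 0.0631).

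Other growth factor genes fell alongside Adm. Of 17 tested, 4 were lower and 0 were higher (2 at an unadjusted p under 0.05), with a median of -0.10. Hbegf, a ligand of the EGF receptor, fell from 189, 189 and 226 to 93.4, 90.7 and 84.9 (-1.10 ± 0.13, adjusted p = 0.000482). The neurotrophin gene Bdnf fell from 142, 167 and 202 to 80.3, 65.7 and 78.4 (-1.10 ± 0.16, adjusted p = 0.00183), and Gdnf, of the GDNF family, from 613, 496 and 331 to 183, 152 and 187 (-1.38 ± 0.19, adjusted p = 0.00141), with a second, dimmer Gdnf probe set at -0.95 that did not pass. Vegfa, the main angiogenic factor gene, read 34.6, 42.3 and 34.0 untreated, 52.2, 45.0 and 85.1 at 30 min and 94.3, 85.4 and 90.6 at 120 min. The treated groups lay just apart, and the change did not pass (0.56 ± 0.20, adjusted p = 0.221) except without NECA 30 min replicate 3 (adjusted p = 0.0178). Without NECA 30 min replicate 2 the growth factor gene Fgf7 was higher (1.51, adjusted p = 0.00725), against 1.15 and an adjusted p of 0.075 with all arrays.

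In the TGF-beta and BMP list 3 of 20 tested genes fell and 1 rose. Id1 and Id3, inhibitors of basic helix-loop-helix factors, fell from 591, 530 and 754 to 327, 310 and 324 (-0.93 ± 0.14, adjusted p = 0.00213) and from 725, 660 and 853 to 266, 264 and 360 (-1.31 ± 0.16, adjusted p = 0.000482). Their 120 min arrays lay near the untreated signals of 377 to 393 and 326 to 414, and the changes against untreated, -0.26 and -0.34, did not pass. Tgif1, a corepressor gene of SMAD signalling, fell from 525, 583 and 327 to 151, 171 and 194 (-1.40 ± 0.19, adjusted p = 0.00126). Inhba (100277_at), the subunit gene of activin A, rose from 58.7, 46.8 and 69.8 to 186, 204 and 158 (1.53 ± 0.16, adjusted p = 0.000163), above 41.0 to 51.6 untreated. Smad2, a signal transducer gene (0.53), was also higher without NECA 30 min replicate 2 (adjusted p = 0.0193).

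Hes1, the repressor gene induced by Notch, read 82.0, 98.1 and 91.5 untreated, 187, 165 and 182 at 30 min and 76.7, 68.9 and 55.9 at 120 min (-1.32 ± 0.14, adjusted p = 0.000177). Its 30 min arrays stood above both other groups. Dll1, a Notch ligand gene, was lower at 120 min (-1.11 ± 0.25, adjusted p = 0.0307) but not under 7 of 18 alternatives, among them the fits without untreated replicate 2, NECA 30 min replicates 1 or 3 or any 1 of the 120 min arrays (highest adjusted p 0.11). The other 9 of 11 tested Notch pathway genes did not pass.

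Of the called genes of growth arrest and the DNA damage response each was lower at 120 min. Of 23 tested, 7 were lower, 0 were higher (0 also at an unadjusted p under 0.05) and 20 had a negative change, with a median of -0.27. Gadd45a, a stress sensor gene, fell from 214, 191 and 226 to 55.3, 62.3 and 69.6 (-1.64 ± 0.13, adjusted p = 1.56e-05), and Ccng2, an atypical cyclin gene of resting cells, from 110, 111 and 114 to 27.5, 23.2 and 28.8 (-1.80 ± 0.15, adjusted p = 2.05e-05). For both the untreated arrays, at 224 to 251 and 78.6 to 112, were also above the 120 min arrays. Plk2 fell by 0.82 and Sesn1 by 0.75 on the log2 scale (adjusted p = 0.00259 and 0.00518). Gadd45g fell by 0.76 (adjusted p = 0.0266), a call lost under 8 of 19 alternatives, among them the fits without untreated replicate 2, NECA 30 min replicates 1 or 3 or any 1 of the 120 min arrays (highest adjusted p 0.117). Ddit4 and Btg2 were the other falls. Of 34 tested cyclins and cell cycle genes 0 were called by limma (unadjusted p was under 0.05 for 2 that were positive and 3 that were negative), and 3 were lower without NECA 30 min replicate 2, Ccnd1, Plk1 and Cdc20.

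The unfolded protein and integrated stress response list had 5 of 21 lower and 0 higher (0 also at an unadjusted p under 0.05), with a median of -0.03. Trib3, a pseudokinase gene induced by ATF4, fell from 164, 161 and 215 to 66.8, 64.2 and 60.6 (-1.38 ± 0.14, adjusted p = 0.000125). Herpud1, a gene of endoplasmic reticulum-associated degradation, fell from 173, 165 and 209 to 67.5, 79.7 and 73.6 (-1.22 ± 0.14, adjusted p = 0.000252), and Ddit3, which encodes CHOP, from 395, 321 and 426 to 141, 180 and 191 (-1.12 ± 0.16, adjusted p = 0.00143). These 3 passed under each of the 19 alternatives. Ppp1r15a (-0.70, adjusted p = 0.016) was lost under 6 of them, among them the fits without NECA 30 min replicates 1 or 3 or NECA 120 min replicates 2 or 3 (highest adjusted p 0.0747), and Atf4 (-0.48, adjusted p = 0.0372) under 14, with any 1 array but NECA 30 min replicate 2 left out among them (highest adjusted p 0.14).

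Of 25 tested NRF2-type antioxidant genes 5 rose, 1 fell and 21 had a positive change (median 0.22). NRF2 is the factor that induces genes of glutathione synthesis and redox repair. Gclc, the catalytic subunit gene of glutathione synthesis, rose from 136, 161 and 162 to 364, 414 and 413 (1.34 ± 0.13, adjusted p = 5.41e-05), and Hmox1, heme oxygenase 1, from 501, 412 and 480 to 1020, 925 and 1231 (1.17 ± 0.14, adjusted p = 0.000471). Srxn1 (102780_at), sulfiredoxin, rose from 121, 114 and 64.9 to 411, 425 and 510 (2.12 ± 0.22, adjusted p = 0.000131), while a second, dimmer Srxn1 probe set changed by -0.34 and did not pass. In the untreated arrays these 3 genes read 139 to 149, 403 to 482 and 66.9 to 97.7, near their 30 min levels.

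Gclm, the modifier subunit gene, rose by 0.90 (adjusted p = 0.0164, or 0.0678 without NECA 120 min replicate 3). Nfe2l2, the gene of NRF2 itself, read 409, 462 and 400 at 30 min and 574, 642 and 629 at 120 min (0.53 ± 0.12, adjusted p = 0.029). Its call was lost under 12 of 19 alternatives, among them the fits without any 1 of the untreated or 120 min arrays or NECA 30 min replicates 1 or 3 (highest adjusted p 0.125). Txnip, an inhibitor of thioredoxin, fell from 316, 281 and 271 to 132, 100 and 164 (-1.11 ± 0.17, adjusted p = 0.00264), below 382 to 467 untreated, and a second, dimmer probe set at 0.20 did not pass. Of 20 tested heat shock and co-chaperone genes 2 rose and 0 fell (3 and 2 at an unadjusted p under 0.05), Bag3 from 321, 282 and 303 to 674, 717 and 640 (1.15 ± 0.14, adjusted p = 0.000553) and Hsph1 from 303, 375 and 202 to 583, 583 and 797 (1.17 ± 0.21, adjusted p = 0.0078).

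The circadian clock list had 4 of 15 higher and 1 lower. Per1, a clock repressor gene that responds early to cyclic AMP, fell from 123, 106 and 137 to 27.9, 33.5 and 34.8 (-1.70 ± 0.15, adjusted p = 3.93e-05), below 60.9 to 79.8 untreated. Arntl, which encodes the activator BMAL1, rose from 73.9, 57.6 and 73.9 to 153, 131 and 133 (0.95 ± 0.15, adjusted p = 0.00414), and Cry1, a repressor gene, from 117, 125 and 130 to 177, 234 and 255 (0.79 ± 0.15, adjusted p = 0.0108). Nfil3 and Usp2, a deubiquitinase gene, were the other rises. The Cry1 call was lost without NECA 30 min replicate 1 or NECA 120 min replicate 2 or 3 (highest adjusted p 0.0579). The Usp2 call (1.25, adjusted p = 0.0418) was lost under 11 of 19 alternatives, with any 1 of the 6 treated arrays left out among them (highest adjusted p 0.149), and a second Usp2 probe set changed by 0.02.

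Of the CITED, KLF and CEBP factor list, 3 of 19 rose (Nfil3, Cebpd and Cited1) and 5 fell, with a median of -0.46. Cited1, a co-activator gene, rose from 22.9, 33.2 and 25.5 to 76.2, 66.9 and 71.0 (1.18 ± 0.19, adjusted p = 0.0035), whereas Cited2, an inhibitor of hypoxia-inducible factors, fell from 559, 878 and 726 to 319, 365 and 327 (-1.06 ± 0.19, adjusted p = 0.00839). Klf3, a repressor gene, fell from 109, 80.2 and 117 to 44.9, 43.1 and 42.8 (-1.08 ± 0.16, adjusted p = 0.00249), with a fall of 1.85 in the other probe set. Klf7 (-0.94, adjusted p = 0.016) was lost without NECA 30 min replicates 1 or 3 or NECA 120 min replicate 1 (highest adjusted p 0.0676), and Cebpg (-0.75, adjusted p = 0.016) without NECA 30 min replicate 3 or NECA 120 min replicates 1 or 2 (highest adjusted p 0.0722). Of 15 glucocorticoid-type responders 1 rose (Cebpd) and 4 fell (Dusp1, Sgk1, Per1 and Ddit4), and without NECA 30 min replicate 3 the rises were 3, with Cebpb (0.58, adjusted p = 0.0467) and the metallothionein gene Mt2 (0.54, adjusted p = 0.0377) added. Klf6 (-0.78, adjusted p = 0.152), in both the immediate early and the KLF lists, was lower without the same array (adjusted p = 0.00031). Sgk1 (97890_at), a kinase gene, read 245, 205 and 216 untreated, 380, 426 and 471 at 30 min and 84.5, 91.0 and 99.7 at 120 min (-2.12 ± 0.13, adjusted p = 1.58e-06).

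Hk2 (94375_at), the inducible hexokinase gene, rose from 114, 109 and 83.3 to 320, 302 and 303 (1.53 ± 0.15, adjusted p = 7.18e-05). Of 26 tested genes of glucose uptake, glycolysis and the hypoxia response the other call was Slc16a1, a lactate transporter gene (0.84, adjusted p = 0.016), lost without NECA 30 min replicate 1 or NECA 120 min replicates 1 or 2 (highest adjusted p 0.0772), while the glucose transporter gene Slc2a3 (1.04) was also higher without NECA 30 min replicate 2 (adjusted p = 0.0499) and Vegfa without NECA 30 min replicate 3. Odc1, the rate-limiting enzyme gene of polyamine synthesis, read 77.2, 77.7 and 78.1 untreated, 170, 149 and 185 at 30 min and 334, 322 and 311 at 120 min (0.92 ± 0.12, adjusted p = 0.00106). Odc1 lay at 3 separate levels in rising order and was the 1 call among 5 polyamine genes.

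The sterol list had the highest median of 33 lists, 0.40, with 17 of 21 tested genes positive, 3 called higher and 1 lower. Hsd17b7, a late enzyme of cholesterol synthesis, rose from 52.1, 41.4 and 37.7 to 85.2, 85.8 and 93.9 (0.91 ± 0.15, adjusted p = 0.00588). Idi1 (1.20) and Fdps (1.03), enzymes of the isoprenoid steps, did not pass. Without NECA 30 min replicate 2 the list had 6 higher and 0 lower, with Idi1, Cyp51 and Msmo1 added. Hmgcs1, an early enzyme (0.74, adjusted p = 0.0568), was higher without untreated replicate 2 or NECA 30 min replicate 3. The calls of Sqle (0.44, adjusted p = 0.0364), the desaturase gene Scd1 (0.77, adjusted p = 0.0312; its second probe set, at 1.27, did not pass) and the efflux pump gene Abca1 (-1.22, adjusted p = 0.0353) were lost under 15 of 19, 11 of 19 and 9 of 18 alternatives. Each was lost without untreated replicate 2, NECA 30 min replicates 1 or 3 or NECA 120 min replicates 1 or 3 (highest adjusted p 0.155, 0.135 and 0.105). Sqle and Scd1 were also lost without NECA 120 min replicate 2, Sqle without untreated replicates 1 or 3, and Abca1 without NECA 30 min replicate 2.

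Among 32 matrix and protease genes, Vcan and Has2 rose and Mmp11 fell. Vcan (100019_at), versican, a proteoglycan that binds hyaluronan, rose from 37.4, 61.7 and 41.0 to 188, 184 and 214 (1.92 ± 0.26, adjusted p = 0.00106). Has2, hyaluronan synthase 2, rose from 36.9, 49.3 and 30.6 to 79.3, 64.6 and 88.5 (0.88 ± 0.19, adjusted p = 0.0279), a call lost under 7 of 19 alternatives, among them the fits without NECA 30 min replicates 1 or 3 or NECA 120 min replicates 1 or 3 (highest adjusted p 0.121). Mmp11, a stromelysin gene, fell from 162, 138 and 152 to 72.8, 71.5 and 76.0 (-0.96 ± 0.13, adjusted p = 0.00106). Procr, the receptor gene of protein C, rose from 51.0, 46.1 and 62.5 to 147, 155 and 172 (1.45 ± 0.15, adjusted p = 0.000119), from 26.5 to 33.6 untreated, so the coagulation list of 10 held 1 rise, Procr, and 1 fall, F3.

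The remaining genes among the largest changes are single members of their groups. Nfatc1 (102209_at), a calcium-regulated factor gene, rose from 26.4, 31.2 and 41.4 to 100, 86.1 and 150 (1.53 ± 0.23, adjusted p = 0.00238). Nrp1 (95016_at), neuropilin 1, a semaphorin and VEGF co-receptor, rose from 46.2, 57.5 and 50.9 to 168, 148 and 159 (1.48 ± 0.13, adjusted p = 4.14e-05), and a second, dimmer probe set at 0.56 did not pass. Gcnt2 (95392_at), an enzyme that branches sugar chains, rose from 2.58, 3.42 and 3.54 to 25.2, 23.3 and 33.9 (1.66 ± 0.31, adjusted p = 0.012, or 0.0737 without NECA 120 min replicate 3). Mnt (92300_at), which encodes a partner of MAX that opposes MYC, fell from 59.4, 56.4 and 76.1 to 5.73, 6.76 and 8.26 (-2.27 ± 0.18, adjusted p = 1.46e-05). Of these 30 genes of largest change, 29 passed under each of the 19 alternatives and Gcnt2 under 17 of 18.

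Gem, a GTPase gene induced by cyclic AMP, rose from 91.4, 112 and 112 to 176, 166 and 206 (0.75 ± 0.16, adjusted p = 0.0233), a call lost without NECA 30 min replicate 1 or NECA 120 min replicates 1 or 3 and with the replicate number as a block (highest adjusted p 0.104). Ptger4, a prostaglandin E2 receptor gene, was the 1 call among 13 prostaglandin, sphingosine 1-phosphate and nitric oxide genes (-1.13 ± 0.26, adjusted p = 0.0419). It was lost under 13 of 18 alternatives, with any 1 array but NECA 120 min replicate 2 left out among them (highest adjusted p 0.162). Of 23 tested cytosolic ribosomal protein genes 0 were called by limma (unadjusted p was under 0.05 for 2, both positive), with a median of 0.04, and 1 was higher without NECA 30 min replicate 2, Rps4x, whose second probe set changed by -0.53 with all arrays.

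**Figure D4:**
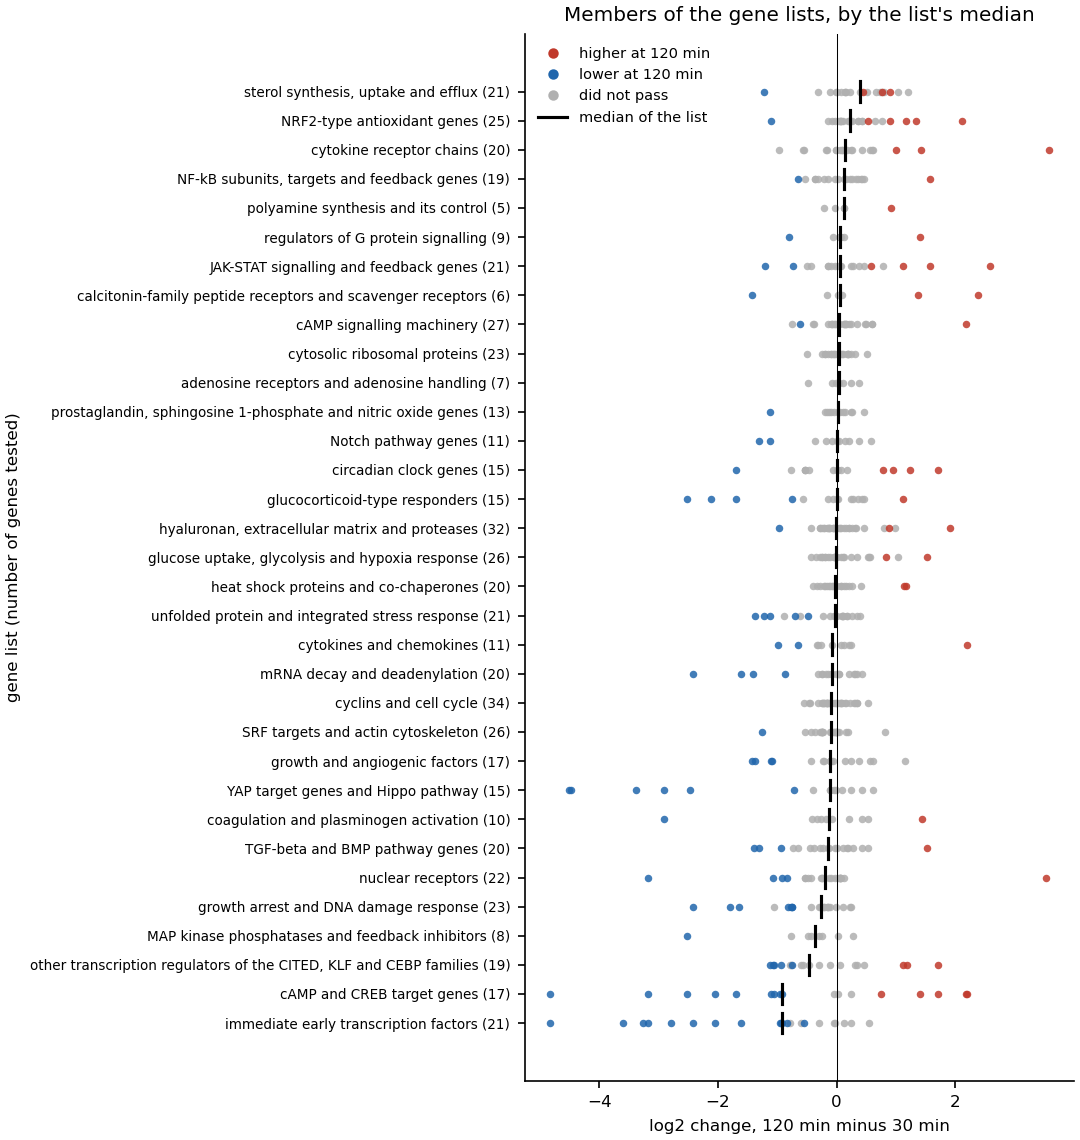
Log2 change from 30 to 120 min (horizontal axis) of the tested members of 33 gene lists (vertical axis, number tested in brackets), with members called higher in red, called lower in blue, others in grey and the list's median as a black bar. The medians of the immediate early list and of the cyclic AMP target list both lie at -0.92, and that of the sterol list at 0.40.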

How the data were processed

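RNA of 9 cultures of TtT/GF cells was measured on 1 array each, in 3 groups of 3, taken from the labels' titles and agent. The authors deposited 1 linear signal intensity per probe set. The submitters' processing notes name MAS5; its version is not given in the sources used here. Each array's 2% trimmed mean lay at 100.056 to 100.065, so the authors' scaling was kept. Detection calls were not used here.

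Of 12488 probe sets 66 were controls. GEO's platform annotation gave 1 gene symbol for 10833 of the other 12422, several for 396 and none for 1193, and it can be old. Those without a single symbol were tested but not named. Signals became log2(signal + 7.93), the offset being the 25th percentile, and 7851 probe sets above 20.5, the 40th percentile, on at least 3 of 9 arrays were tested, while 4571 were not. Tests were two-sided, with limma 3.58.1 in R 4.3.3 on all 9 arrays (eBayes with an intensity trend, prior degrees of freedom 5.68, median standard error of a change 0.18) and Benjamini-Hochberg adjustment at 0.05, checked on simulated data. A gene was represented by its tested probe set of highest mean, and another probe set of a called gene was given where its call differed.

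Named genes were the 15 largest rises and 15 largest falls that passed with arrays of the times apart, up to 4 members of each of 34 gene lists and 5 marker lists with the smallest p, and Nr4a1, Fos, Il6, Vegfa, Ccn2, Gja1 and Adora2b (of which Adora2b was not analysed here). A further 40 genes were chosen after their values were seen: Myc, Atf3, Fosb, Mafk, Ier3, Cited2, Pim3, Stat3, Lats2, Nr1h4, Klf7, Cebpg, Usp2, Gclm, Nfe2l2, Atf4, Sesn1, Ddit4, Gadd45g and Cited1, which complete the calls of the lists, and the 20 genes named under other observations. Those that did not pass are mostly given as counts, and Fosl1, Fosl2, Jun, Jund, Maff, Cga, Ptgs2, Pde4b, Yap1, Wwtr1, Tead2, Tead4, Idi1, Fdps, Klf6, Osmr, Cebpb, Mt2, Fgf7, Smad2, Cyp51, Msmo1, Hmgcs1, Ramp1 and Ramp2 were also chosen after their values were seen. The result of 1 gene list and its largest rise are not reported here. The lists, which share 47 of their 582 tested genes, and the comparison itself were chosen with earlier results of these data known. The 19 alternatives changed the offset, filter, scaling, arrays in the fit, replicate block, prior, an RNA quality covariate and each array in turn. Promoters came from RefSeq, GRCm38.p6.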

Additional observations from a re-analysis of the deposited data

How the results depend on the processing

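Under the 19 alternatives no called probe set was called in the opposite direction, and the named genes that passed kept their sign. Changes of sign in probe sets that lost their call were not counted. The alternatives use the same arrays, so this is no separate support for the calls. The count of higher probe sets, 106, ranged from 64 to 177 with 1 array left out, and the count of lower ones, 127, from 87 to 129. Without NECA 30 min replicate 2, 99 probe sets were added and 207 of the 233 calls were kept. The counts of higher and lower were 98 and 123 with an offset of 1, 108 and 123 with 32, 87 and 98 with no filter, 90 and 108 with a filter at the 60th percentile, 103 and 121 with quantile normalization, and 107 and 125 with median centring. They were 79 and 96 with only the treated arrays, 97 and 120 with no intensity trend, and 76 and 88 with a covariate for RNA integrity (Gapdh). Whether the replicate numbers pair the samples is unresolved. The deviations of same-numbered 30 and 120 min arrays correlated at 0.008, 0.23 and 0.069. Those of differently numbered 30 and 120 min arrays correlated at -0.154 to 0.086. With the replicate number as a block, 89 were higher and 109 lower, and 190 of the 233 calls were kept. Of 124 genes chosen by the naming rule or added to it that passed, 87 passed under each alternative that tested them and 37 were lost under at least 1. The cause of these shifts was not tested. Signals near background limit the dimmest genes, where the median standard error was 0.226 in the dimmest 25% of probe sets against 0.148 in the brightest 25%.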

Other observations

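Some of the clear changes from 30 to 120 min lay in genes of no list. They were chosen after their values were seen and carry no theme. Enzyme genes of sugar nucleotide synthesis were among them. Gfpt2, which starts the hexosamine pathway, rose from 156, 136 and 106 to 278, 286 and 380 (1.20 ± 0.17, adjusted p = 0.00149), and Ugdh, which makes UDP-glucuronic acid, from 1690, 1756 and 1481 to 2399, 2842 and 2565 (0.66 ± 0.11, adjusted p = 0.00549). Uap1, which makes UDP-N-acetylglucosamine, read 14.1, 25.7 and 21.2 at 30 min and 68.1, 58.5 and 48.4 at 120 min (1.24 ± 0.26, adjusted p = 0.0252). The Uap1 call was lost without NECA 30 min replicates 1 or 3 or any 1 of the 120 min arrays (highest adjusted p 0.112). Dgat1, which makes triglycerides, rose from 209, 197 and 269 to 555, 695 and 618 (1.44 ± 0.16, adjusted p = 0.000177), above 108 to 138 untreated, and a second, dimmer probe set at 1.04 did not pass.

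Further rises were those of Cdr2 (1.20, adjusted p = 0.00349) and its relative Cdr2l (1.28, adjusted p = 0.000482), the pituitary homeobox gene Pitx1 from 171, 192 and 189 to 399, 367 and 334 (0.96 ± 0.12, adjusted p = 0.000696), and the beta-tubulin genes Tubb3 (0.82, adjusted p = 0.00674) and Tubb2a (0.58, adjusted p = 0.0168). Second probe sets of Tubb3 (0.30) and Tubb2a (0.41) did not pass, and tubulin genes are alike enough that probes may not tell them apart. Ptpn1, a phosphatase gene of insulin and JAK signalling, rose by 0.85 (adjusted p = 0.0128), and Nab2, a corepressor gene of the EGR factors, by 0.54 (adjusted p = 0.0343) while Egr1 and Egr2 fell. The calls were lost for Tubb2a without NECA 30 min replicate 1 or any 1 of the 120 min arrays (highest adjusted p 0.0784), for Ptpn1 without NECA 30 min replicate 1 or NECA 120 min replicates 1 or 3 (highest adjusted p 0.0678), and for Nab2 without any 1 of the untreated arrays, NECA 30 min replicate 1 or NECA 120 min replicates 2 or 3 (highest adjusted p 0.154).

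Among the falls, Cdkn2b, a cyclin-dependent kinase inhibitor gene, went from 156, 143 and 177 to 48.4, 39.7 and 44.3 (-1.68 ± 0.13, adjusted p = 1.56e-05), and Tec, a tyrosine kinase gene, from 107, 94.5 and 87.2 to 14.1, 28.8 and 32.5 (-1.70 ± 0.22, adjusted p = 0.000767). Snai2, a repressor gene of epithelial programs, fell by 1.27 (adjusted p = 0.000767), the mitotic kinase gene Wee1 by 1.22 (adjusted p = 0.000219), and the focal adhesion genes Tns2 by 1.38 (adjusted p = 0.000252) and Bcar1 by 0.75 (adjusted p = 0.00946) on the log2 scale. Ankrd33b read 89.7, 73.1 and 114 untreated, 221, 226 and 330 at 30 min and 78.7, 100 and 94.0 at 120 min (-1.41 ± 0.19, adjusted p = 0.00111), so its 30 min arrays stood above both other groups, which overlapped. Runx1 fell by 1.13 (adjusted p = 0.0182) and Map3k8 by 1.29 (adjusted p = 0.0327). The Bcar1 call was lost without NECA 120 min replicate 2 (adjusted p = 0.0544), the Runx1 call without NECA 30 min replicate 1 or NECA 120 min replicate 1 (highest adjusted p 0.0805), and the Map3k8 call without untreated replicate 1, any 1 of the 30 min arrays or NECA 120 min replicates 1 or 3 (highest adjusted p 0.0846), with a second Map3k8 probe set at 0.19 that did not pass.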
